A study of Homo sapiens with 6 samples.

Results

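The region described is the stretch of human chromosome 12 from 57 to 71 Mb (hg19), in bands 12q13 to 12q15, in H1299 cells. It was chosen from measured values: it holds 2 of the 1 Mb bins in which the summed length of H3K4me3 peak intervals was most reduced after metformin, 66 to 67 Mb and 69 to 70 Mb, called the falling bins here. Its members are the 1415 intervals of the 4 peak lists that overlap this stretch, out of 275570 in all, after lines that share an interval were joined. H3K4me3 contributed 361 intervals in metformin-treated cells and 394 in control cells, and H3K27me3 contributed 331 and 329. The assay was chromatin immunoprecipitation with sequencing (ChIP-seq) of micrococcal nuclease-digested, cross-linked chromatin. H1299 is an established line from a human non-small cell lung cancer, used at passage 10 to 15 per the labels. Treated cells received 5 mM metformin, a biguanide drug for type 2 diabetes, and control cells received no treatment. The sources used here do not say how long the treatment lasted. Each mark was profiled in 1 library per condition, so no value below has a replicate error, no test between conditions was possible, and no p-value is given. The 2 input libraries were not used here.

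H3K4me3 is trimethylated lysine 4 of histone H3. It is written by the SET1 and MLL complexes, marks the starts of active genes, and can spread from there into the gene body as a broad domain. H3K27me3, trimethylated lysine 27, is written by Polycomb repressive complex 2 and marks silenced genes, often over long blocks. This part of 12q is known for genes that are gained in tumours, liposarcoma above all, among them CDK4, HMGA2 and MDM2. HMGA2 is a chromatin protein with AT-hook motifs that is active in embryonic tissue and switched on again in many cancers. MDM2 is the ubiquitin ligase that marks the tumour suppressor protein p53 for destruction, and H1299 cells lack p53. The bins that set the choice of region are described by it as the area of HMGA2 (66 to 67 Mb) and of MDM2 (69 to 70 Mb). In the order of protein-coding genes in RefSeq (GRCh38.p14), HMGA2 lies between MSRB3 and LLPH, and MDM2 between SLC35E3 and CPM. That table is on another build than the peak lists, so no interval was placed at a gene and no sequence of the region is shown. Intervals are named by their hg19 position.

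Each line of a list carries 1 deposited value, read here as −log10 q, a measure of how far the peak stands above background. Many H3K4me3 intervals have several lines, 1 per sub-peak, and the value of an interval is the highest of its lines. The value of an interval was used to rank intervals within a list and to sort intervals and loci into classes. The limits of these classes were the same in both lists, although the scale of the values may differ between lists. Where values of both lists stand side by side they are description only, and nothing is read from their difference. Read depth per library is unknown, so neither list length nor the size of the values was taken to measure the amount of the mark. DNA copy number along 12q was not analysed here, and its part in the results was not tested.

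Over the whole region H3K4me3 covered nearly the same length in both conditions, while it was longer after metformin over the genome. It covered 409 kb in metformin-treated cells and 405.7 kb in control cells, 1.01 times as much, at length-weighted mean values of 35.6 and 27.8. Over the genome it covered 55.2 Mb after metformin and 49.4 Mb in control cells, 1.12 times as much, at 30.3 and 25.5. The region therefore held 0.741% of the H3K4me3 length of the metformin list and 0.821% of that of the control list. The number of intervals was smaller after metformin, at 0.916 times, against 1.06 times over the genome. Intervals of 2 kb or more numbered 75 after metformin and 66 in control cells, and those of 4 kb or more 17 and 13. Over the genome wide intervals were likewise more numerous after metformin, with 8772 metformin and 7403 control intervals of 2 kb or more, and 1595 and 1236 of 4 kb or more. Intervals under 500 bp numbered 184 after metformin and 197 in control cells.

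No interval crossed either border of the region. At its start the first H3K4me3 interval inside was chr12:57020583-57020797 after metformin and chr12:57020237-57020551 in control cells, and the last one before it was chr12:56920252-56921377 and chr12:56975126-56975320. At its end the last interval inside was chr12:70760537-70761920 after metformin and chr12:70760538-70762009 in control cells, and the first one beyond was chr12:71002762-71003447 and chr12:71002264-71003489. The 1 Mb bin before the region held 139 kb of H3K4me3 after metformin and 127 kb in control cells. The bin after it held 7.54 kb after metformin and 8.255 kb in control cells.

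The region joined bins that changed in opposite directions. From 57 to 58 Mb H3K4me3 covered 105 kb after metformin and 97.5 kb in control cells, and from 58 to 59 Mb 72.1 and 61.5 kb. Between 59 and 62 Mb a single interval was found, 168 bp long and in the metformin list, and the control list held none. From 62 to 64 Mb the mark covered 22.7 kb after metformin and 18.95 kb in control cells, and from 64 to 66 Mb 70.95 and 67.2 kb. The bin from 66 to 67 Mb held 56.6 kb after metformin and 67.3 kb in control cells, 0.842 times as much. From 67 to 69 Mb the values were 23.3 and 23.98 kb, and from 69 to 70 Mb 46.0 kb after metformin and 54.5 kb in control cells, 0.844 times as much. The last bin, from 70 to 71 Mb, held 12.4 kb after metformin and 14.8 kb in control cells, 0.841 times as much. Without the bins from 66 to 67 and from 69 to 70 Mb, the rest of the region held 306 kb after metformin and 284 kb in control cells, a ratio of 1.08.

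**Figure D1:**
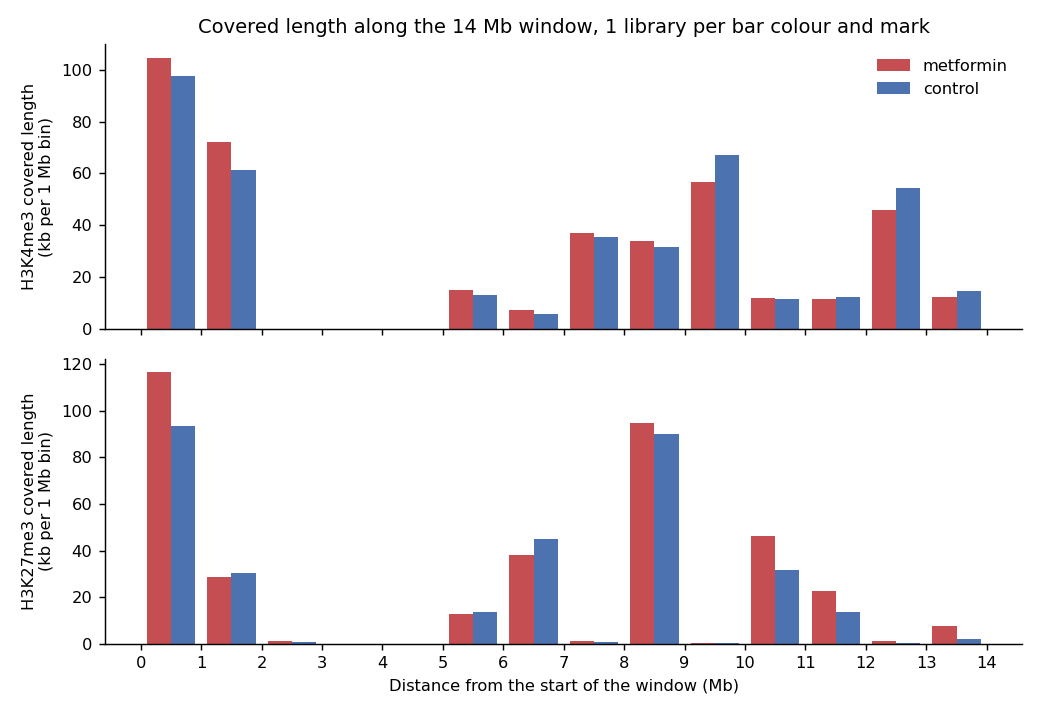
Covered length of H3K4me3 (top) and H3K27me3 (bottom) in kb per 1 Mb bin, against distance from the start of the region in Mb, with metformin and control bars side by side and 1 library behind each. In the bins that start 9 and 12 Mb from the edge, H3K4me3 covered 56.6 and 46.0 kb after metformin, below the 67.3 and 54.5 kb of control cells, and H3K27me3 was at most 1.25 kb.

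Among the 2530 bins of 1 Mb that held any H3K4me3, the bin from 66 to 67 Mb had the largest reduction in kb, and the bin from 69 to 70 Mb the third largest. The bin from 149 to 150 Mb of chromosome 3 stood between them, with 52.0 kb after metformin and 61.3 kb in control cells. The fourth was on the same arm as the region, from 76 to 77 Mb, with 29.8 kb after metformin and 38.3 kb in control cells. Of the 1524 bins with at least 10 kb in control cells, 20.1% covered less after metformin. In the region this held for 4 of 10 such bins. A length at least 1.1 times lower was found in 4.13% of the 1524 bins and in 3 of the 10. Since the region was chosen on this contrast, its shares describe the choice and nothing is read from them.

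**Figure D2:**
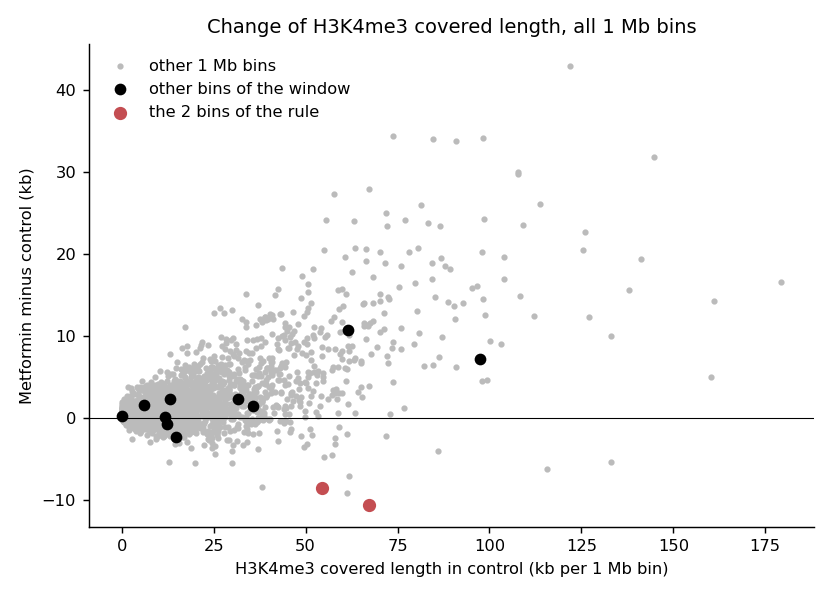
Difference in H3K4me3 covered length (metformin minus control, kb) against the length in control cells (kb) for each 1 Mb bin with H3K4me3, with the falling bins as large red points and the other bins of the region (the window in the legend) in black. The bins from 66 to 67 and 69 to 70 Mb lie at −10.6 and −8.53 kb, while the bin from 58 to 59 Mb lies at 10.6 kb.

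The bin from 66 to 67 Mb held 63 H3K4me3 intervals after metformin and 84 in control cells, which ranked number 140 and number 48 among all 1 Mb bins of their lists. Intervals under 500 bp numbered 40 (63.5%) after metformin and 56 (66.7%) in control cells, against 48.4% and 48.7% over the genome. In the control list 49 of the 84 intervals (58.3%) had no metformin partner, the most of any 1 Mb bin. The bin from 44 to 45 Mb of chromosome 19 came next with 44. Over the genome 22.7% of control intervals lacked a partner, and since the bin was chosen for its lost length, this difference describes the choice. Of the 63 metformin intervals 24 (38.1%) had no control partner, against 32.7% over the genome. The control-only intervals of the bin had a median width of 231 bp and values of at most 6.66.

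Most of these short intervals lay in 1 dense stretch, chr12:66203243-66359457, where control intervals followed each other with gaps of at most 20 kb. The stretch was delimited after its values were seen. It held 41 intervals after metformin and 59 in control cells, which covered 32.9 and 40.4 kb, or 21.1% and 25.9% of its 156.2 kb. Of these, 18 metformin intervals and 39 control intervals had no partner. Over the genome 32.7% of metformin and 22.7% of control intervals had none. The stretch lies in a bin chosen for lost length, so nothing is read from these counts. The 100 kb bin from 66.2 to 66.3 Mb within it held 33 metformin and 44 control intervals, the largest number in any 100 kb bin of the control list. It covered 28.1 kb after metformin and 33.1 kb in control cells, and the next bin, from 66.3 to 66.4 Mb, 4.84 and 7.33 kb. From 66.1 to 66.2 Mb the values were 7.34 and 9.37 kb. These were the 3 bins of 100 kb with the largest reductions in this Mb, and from 66.5 to 66.6 Mb the mark was slightly longer after metformin, at 9.34 and 9.15 kb. No H3K27me3 interval of either list touched the dense stretch. The 100 kb bin next in number of control intervals, from 122 to 122.1 Mb of chromosome 11, likewise held none.

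The dense stretch held the longest H3K4me3 domain of the region, which was present in both lists. It was 1 interval of 10850 bp in metformin-treated cells, chr12:66216433-66227282, with 28 sub-peaks and a value of 41.7. In control cells it was split into 3 intervals, the longest of which, chr12:66218133-66225696, spanned 7564 bp with a value of 54.4. Summed over the locus, H3K4me3 covered 10850 bp after metformin and 10507 bp in control cells. The loci with the largest reductions lay at higher coordinates and had low values. At chr12:66269589-66273071 the mark covered 1610 bp after metformin and 2772 bp in control cells, and at chr12:66260840-66262634 it covered 726 and 1769 bp. The highest values at these loci were 4.91 and 7.11 after metformin, and 6.69 and 7.18 in control cells.

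**Figure D3:**
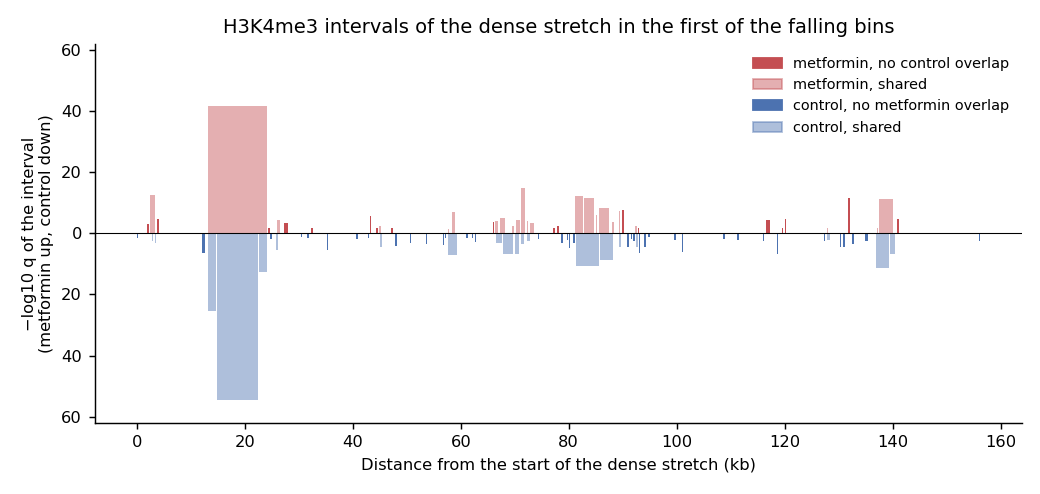
H3K4me3 intervals of the dense stretch, with distance from its start in kb on the horizontal axis and the −log10 q of each interval on the vertical axis, metformin upwards and control downwards. Pale bars have a partner in the other list and full colour bars have none. The tall domain near the left edge is shared. In this stretch of a bin chosen for lost length, 39 of the 59 control intervals have no partner, against 22.7% over the genome.

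Most bins of 100 kb with H3K4me3 covered less after metformin from 69 to 70 Mb. This was also so from 66 to 67 Mb, where 5 covered less and 1 more. The bin from 69 to 70 Mb held 47 H3K4me3 intervals after metformin and 59 in control cells. Of these, 13 (27.7%) and 26 (44.1%) had no partner, against 32.7% and 22.7% over the genome. The bin was chosen for its lost length, so the control share describes the choice. The 100 kb bin from 69.9 to 70 Mb had the largest difference, with 5.599 kb after metformin and 9.327 kb in control cells. From 69.4 to 69.5 Mb the mark covered 2.40 kb after metformin and 4.93 kb in control cells, in 6 and 14 intervals. From 69.8 to 69.9 Mb it covered 7.48 and 9.18 kb. Of the 9 bins of 100 kb with H3K4me3, 7 covered less after metformin and 2 more, both between 69 and 69.2 Mb. The control-only intervals with the largest lengths were chr12:69949233-69950325 (1093 bp) and chr12:69461917-69462878 (962 bp), with a value of 5.59 each.

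The shared sequence made up most of both bins. It is equal in both conditions by definition, so any difference lies in the rest. From 66 to 67 Mb, 42.9 kb was covered in both conditions. Unmatched ends of shared intervals added 5.71 kb after metformin and 10.7 kb in control cells, and intervals of a single list added 8.02 and 13.6 kb. From 69 to 70 Mb the shared part was 37.3 kb. Unmatched ends added 4.88 kb after metformin and 7.66 kb in control cells, and single-list intervals 3.86 and 9.61 kb. From 57 to 59 Mb the order was the other way round, with 140.7 kb shared, unmatched ends of 22.4 and 11.3 kb, and single-list intervals of 13.7 kb after metformin and 7.01 kb in control cells.

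**Figure D4:**
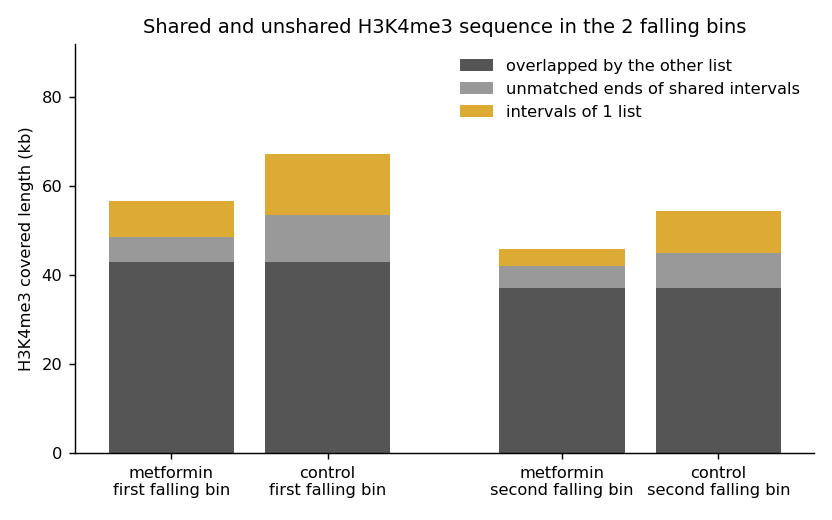
H3K4me3 covered length in kb of the bins from 66 to 67 Mb (left pair) and 69 to 70 Mb (right pair), metformin beside control, divided into sequence covered in both lists, unmatched ends of shared intervals, and intervals of 1 list. The shared parts of 42.9 and 37.3 kb are equal by definition within a pair, and single-list intervals hold 8.02 and 3.86 kb after metformin against 13.6 and 9.61 kb in control cells.

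Sites with values under 20 made up most of the missing length in both bins. Overlapping intervals of the 2 lists were joined into loci, and each locus was placed by the highest value it reached in either list. From 66 to 67 Mb, the 70 loci under 5 covered 9.36 kb after metformin and 15.4 kb in control cells, a ratio of 0.606. Over the genome the 29213 loci under 5 had a ratio of 1.32. The 21 loci from 5 to 20 covered 16.9 kb after metformin and 20.3 kb in control cells (ratio 0.83, genome 1.24), and the 8 loci of 20 or more covered 30.4 and 31.5 kb (ratio 0.965, genome 1.05). From 69 to 70 Mb, the 39 loci under 5 covered 6.07 kb after metformin and 8.79 kb in control cells (0.691), the 17 loci from 5 to 20 covered 6.07 and 9.89 kb (0.614), and the 12 loci of 20 or more 33.9 and 35.9 kb (0.944). The 65, 34 and 43 loci from 57 to 59 Mb had ratios of 1.56, 1.28 and 1.04. In each of these 3 stretches, as over the genome, the loci of 20 or more were closest to equal length. Most of the genome's difference likewise lay at loci under 20. There H3K4me3 covered 1480 kb more after metformin at loci under 5 and 2500 kb more at those from 5 to 20. At loci of 20 or more it covered 1790 kb more. Since the bins were chosen on this length, their ratios below the genome's describe the choice.

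When only intervals above a limit within their own list were counted, neither bin was shorter after metformin at 20 or more. At 5 or more the bin from 66 to 67 Mb held 43.0 kb after metformin and 48.95 kb in control cells, at 10 or more 38.2 and 37.3 kb, and at 20 or more 29219 and 28003 bp. The bin from 69 to 70 Mb held 35.7 kb after metformin and 42.7 kb in control cells at 5 or more, 32.4 and 34.8 kb at 10 or more, and 32.36 and 32.05 kb at 20 or more. The same limit picks different intervals in each list. Over the genome the ratio also grew with the limit, to 1.26 at 20 or more. Both bins lay below it at each limit, which describes their choice. Of the 10 bins of the genome with the largest reductions, 7 covered more after metformin at 20 or more, 2 covered less and 1 had no such interval. The share over all 1 Mb bins was not counted, so nothing is read from these numbers. Control intervals with values under 5 made up 67.9% of those from 66 to 67 Mb and 57.6% of those from 69 to 70 Mb. In the bins from 149 to 150 Mb of chromosome 3 and 76 to 77 Mb of chromosome 12 they made up 59.4% and 68.5%, and over the genome 44.4%.

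**Figure D5:**
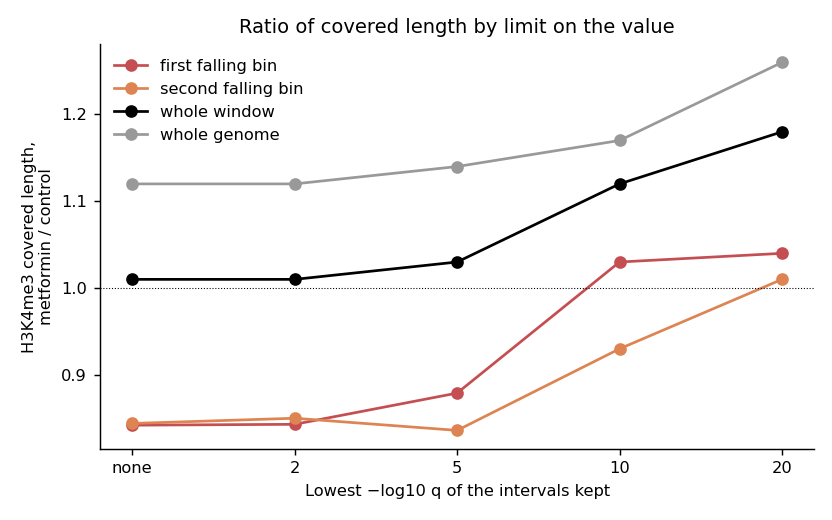
Ratio of H3K4me3 covered length (metformin over control) against the lowest −log10 q of the intervals counted, for the bins from 66 to 67 Mb (first falling bin) and 69 to 70 Mb (second falling bin), the whole region and the genome. The bins start at 0.842 and 0.844 and reach 1.04 and 1.01 at a limit of 20, where the region is at 1.18 and the genome at 1.26.

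All 95 metformin and all 84 control H3K4me3 intervals of the region with a value of 20 or more had a partner, as did 99.89% of such intervals in the metformin list and 99.99% in the control list over the genome. From 66 to 67 Mb the site with the highest value was chr12:66520801-66527162, which covered 5971 bp after metformin and 5960 bp in control cells, with values of 76.8 and 58.3. The loci chr12:66561559-66564628 (2922 bp after metformin and 2762 bp in control cells) and chr12:66694765-66696107 (1343 and 1294 bp) were likewise close in length. The neighbour of the latter, chr12:66696317-66699165, covered 2426 bp after metformin and 2842 bp in control cells. At chr12:66121487-66124072 the mark covered 1762 bp after metformin and 2586 bp in control cells, the largest difference among the 8 loci of 20 or more in this bin. From 69 to 70 Mb, chr12:69079589-69082929 covered 3310 bp after metformin and 3317 bp in control cells, with values of 64.95 and 61.6. A pair of neighbouring loci, chr12:69200961-69201777 and chr12:69201955-69204089, covered 817 and 2116 bp after metformin, and 749 and 2061 bp in control cells. The locus beside them, chr12:69204273-69205205, covered 522 bp after metformin and 933 bp in control cells, with values of 3.305 and 5.586. Among the 12 loci of 20 or more, chr12:69005150-69009114 had the largest difference, with 3252 bp after metformin and 3925 bp in control cells. Of the 12 loci of 20 or more in this bin 8 were shorter after metformin, and of the 8 from 66 to 67 Mb 4 were, against 37.9% of 14336 such loci over the genome. This contrast chose the bins. Only chr12:69631735-69633549 differed by 1.5 times, with 966 bp after metformin and 1515 bp in control cells. Its value was 44.2 after metformin and 23.3 in control cells. The loci in this paragraph were named after their values were seen.

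The stretch from 57 to 59 Mb, dense in H3K4me3, had a net gain in covered length of 17.9 kb. That was more in kb than the 3.73 kb each from 62 to 64 and from 64 to 66 Mb, where the ratios were 1.2 and 1.06. The stretch from 57 to 59 Mb covered 177 kb after metformin and 159 kb in control cells, a ratio of 1.11 that is close to the genome's 1.12. The 100 kb bins with the largest gains were those from 58.1 to 58.2 Mb (32.3 kb after metformin and 26.8 kb in control cells) and from 58.2 to 58.3 Mb (22.03 and 17.99 kb). The locus with the largest gain of the region was chr12:58023229-58027587, 4359 bp after metformin and 2731 bp in control cells. Next came chr12:58161374-58162827, with 1454 bp after metformin and no interval in control cells, at a value of 4.85. At chr12:57020980-57030598 the mark covered 9605 bp in 1 interval after metformin and 8526 bp in 3 intervals in control cells. The loci chr12:65513738-65516269 (2289 bp after metformin and 1270 bp in control cells) and chr12:64798283-64802899 (4438 and 3424 bp) followed. The largest reduction of the region lay outside the falling bins, at chr12:64481604-64482938, where control cells had an interval of 1335 bp with a value of 5.59 and the metformin list had none.

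The highest H3K4me3 values of the region lay mostly at this end. The metformin list was led by chr12:58137132-58141335 (4204 bp, 103.5), where the control list held 3 intervals with a value of up to 28.75. It was followed by chr12:57880903-57884520 (92.8), chr12:57036906-57039775 (82.2), chr12:57113332-57119941 (82.1) and chr12:67661401-67666112 (80.0). The control list was led by chr12:57881826-57884207 (84.25), which is the second of the metformin list, and chr12:58144046-58146139 (76.8). After these came chr12:64237843-64241491 (65.3), chr12:57113063-57119940 (64.8) and chr12:69323856-69326918 (64.8). After metformin the interval at the second of these, chr12:58142862-58146114, had a value of 60.4. Besides the domain of 10850 bp, the longest metformin intervals were chr12:57020980-57030584 (9605 bp) and chr12:57113332-57119941 (6610 bp). In control cells chr12:57113063-57119940 (6878 bp) and chr12:58234003-58240753 (6751 bp) followed the domain of 7564 bp.

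Counted by locus in the full lists, reductions and gains of H3K4me3 were of similar number in the region. Of its 458 loci, 161 (35.2%) had a covered length at least 1.5 times lower after metformin, loci of a single list included, against 23.2% of 60116 loci over the genome. A length at least 1.5 times higher was found at 148 (32.3%), against 38.5% over the genome. With lists cut to equal length by value, 165 of 436 loci were lower and 125 higher. From 66 to 67 Mb 55 of 99 loci were lower and 27 higher, from 69 to 70 Mb 31 of 68 were lower and 17 higher, and from 57 to 59 Mb 30 of 142 were lower and 52 higher. Since this contrast chose the region, nothing is read from these shares. Among the 98 loci that reached 20 or more, 1 (1.02%) was lower and 7 (7.14%) were higher, near the 1.23% and 6.56% of such loci over the genome. Loci found in both lists had a median ratio of 1.01, against 1.07 over the genome, with 0.913 from 66 to 67 Mb and 0.969 from 69 to 70 Mb. Where 1 control interval matched 1 metformin interval, 69 of 127 pairs were wider after metformin (54.3%, 95% Clopper-Pearson interval 45.3 to 63.2), against 60.6% over the genome. So were 5 of 15 pairs from 66 to 67 Mb, 11 of 22 from 69 to 70 Mb, and 36 of 51 from 57 to 59 Mb (70.6%, 56.2 to 82.5). These intervals cover counting error only and treat neighbouring pairs as independent.

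About 2 in 3 H3K4me3 intervals of either list had a partner in the other condition. Of the metformin intervals 242 of 361 (67.04%, 61.9 to 71.9) had a control partner, against 67.3% over the genome. Of the control intervals 255 of 394 (64.7%, 59.8 to 69.4) had a metformin partner, against 77.3%. Outside the falling bins 187 of 251 control intervals (74.5%, 68.6 to 79.8) had one. Since the region was chosen for lost length in these bins, its control shares describe the choice and nothing is read from them. The control-only intervals with the highest values all lay from 66 to 67 Mb: chr12:66042700-66042865 (6.66), chr12:66321821-66322034 (6.66), chr12:66296274-66296485 (6.50), chr12:66215242-66215936 (6.32) and chr12:66304256-66304478 (6.09). That bin held 49 of the 139 control-only intervals of the region and was chosen for lost length, so their place describes the choice. The metformin-only intervals with the highest values were chr12:66334901-66335388 (11.45), chr12:58152318-58152655 (8.41), chr12:65956322-65956507 (7.83), chr12:66293148-66293436 (7.61) and chr12:69895858-69896052 (7.58). Of these metformin-only intervals 2 lay in the dense stretch as well, 268 and 277 bp from the nearest control interval. The dense stretch thus held single-list intervals of both conditions.

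H3K27me3, which did not enter the choice of region, was nearly absent from the falling bins. From 66 to 67 Mb each list held 1 interval, of 258 bp after metformin and 259 bp in control cells, at different positions. From 69 to 70 Mb there were 3 metformin intervals (1.25 kb) and 1 control interval (263 bp). This was not particular to them: from 64 to 65 Mb the mark covered 1.27 kb after metformin and 0.974 kb in control cells. From 76 to 77 Mb of chromosome 12 neither list held any. From 149 to 150 Mb of chromosome 3 it covered 8.51 kb after metformin and 5.74 kb in control cells. Over the region H3K27me3 covered 371 kb after metformin and 322 kb in control cells, 1.15 times as much, at length-weighted mean values of 1.67 and 1.66. Over the genome the ratio was 1.09, at 1.68 and 1.67. Its highest value in the region was 3.41 after metformin and 2.66 in control cells, where the lowest values of the lists were 1.00 and 1.01.

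H3K27me3 was concentrated in a few blocks. From 57 to 58 Mb it covered 116 kb after metformin and 93.3 kb in control cells, most of it from 57.2 to 57.5 Mb. From 65 to 66 Mb it covered 94.6 kb after metformin and 90.0 kb in control cells, with 58.2 and 47.2 kb from 65.3 to 65.4 Mb alone. The longest interval after metformin lay there, chr12:65382455-65400636 (18.2 kb), and the longest of control cells was its neighbour, chr12:65400393-65415966 (15.6 kb). A metformin interval of 8.88 kb, chr12:65404597-65413478, lay within this control interval. The third longest were chr12:57227770-57235562 (7.79 kb) after metformin, and chr12:57344137-57353256 (9.12 kb) in control cells, after chr12:65318314-65327686 (9.37 kb). Between the falling bins the mark covered more after metformin: 46.3 kb against 31.8 kb in control cells from 67 to 68 Mb, and 22.8 kb against 13.6 kb from 68 to 69 Mb. The bin from 63 to 64 Mb went the other way, with 38.1 kb after metformin and 45.1 kb in control cells. Of the 7 bins with at least 10 kb in control cells 3 covered less after metformin, against 31.7% of such bins over the genome.

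Single H3K27me3 loci changed in either direction. The largest gain was at chr12:68639968-68645415, where the mark covered 5252 bp after metformin and 779 bp in control cells. Other gains lay between 67 and 68 Mb, at chr12:67576547-67580094 (3548 bp after metformin and 268 bp in control cells), chr12:67569222-67572665 (3444 and 362 bp) and chr12:67936065-67939256 (3192 and 228 bp), and at chr12:65328547-65332258 (3712 and 541 bp). The largest reductions were at chr12:57437973-57444251 (2377 bp after metformin and 6181 bp in control cells), chr12:63796436-63800983 (1012 and 4462 bp) and chr12:67591453-67595112 (975 and 3660 bp). At chr12:58382955-58385270 only the control list held an interval, of 2316 bp, and at chr12:57217357-57219942 the mark covered 317 bp after metformin and 2586 bp in control cells. Of 493 loci, 217 (44.0%) were at least 1.5 times lower after metformin and 235 (47.7%) at least 1.5 times higher. Over the genome these shares were 43.0% and 46.4%, so the region was near the background. Of the metformin intervals 186 of 331 (56.2%) had no control partner and of the control intervals 184 of 329 (55.9%) had no metformin partner, against 53.7% and 51.7% over the genome.

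The H3K27me3 intervals with the highest values were short. After metformin they were chr12:67914578-67914857 (280 bp, 3.41), chr12:63406166-63406725 (560 bp, 2.82), chr12:57431327-57432056 (730 bp, 2.76), chr12:70363482-70363655 (174 bp, 2.67) and chr12:65316278-65317014 (737 bp, 2.63). In control cells they were chr12:67859896-67860070 (175 bp, 2.66), chr12:62567771-62568336 (566 bp, 2.365), chr12:57364898-57366160 (1263 bp, 2.245), chr12:58415153-58416546 (1394 bp, 2.235) and chr12:65338117-65338331 (215 bp, 2.23). The second and the fourth of the metformin list and the first and the second of the control list had no partner. After these, the metformin-only intervals with the highest values were chr12:67567883-67568385 (2.45), chr12:67583197-67583498 (2.44) and chr12:68599346-68599841 (2.41), all between the falling bins. The control-only ones were chr12:62572208-62572376 (2.17), chr12:63775814-63776069 (2.13) and chr12:63830004-63830229 (2.08), all from 62 to 64 Mb.

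H3K4me3 and H3K27me3 met at few sites of the region, all from 57 to 59 Mb. After metformin 5 of 361 H3K4me3 intervals (1.39%, 95% interval 0.451 to 3.20) also carried H3K27me3 over at least 1 bp, against 4.55% over the genome. In control cells it was 1 of 394 (0.254%, 0.00643 to 1.41), against 2.78%. The sequence under both marks was 4738 bp after metformin and 495 bp in control cells. The sites with the longest overlap after metformin were neighbours, chr12:57610754-57613180 with 1875 bp under both marks and chr12:57608323-57610444 with 1450 bp. At the first of these control cells had 1536 bp of H3K4me3 and no H3K27me3. The second held the single control site, chr12:57608630-57610201, with 495 bp under both marks. At chr12:58129100-58132084, 574 bp was under both marks after metformin, while control cells had 2542 bp of H3K4me3 and no H3K27me3. In the falling bins no H3K4me3 interval of either list was overlapped by H3K27me3. Within 5 kb of an H3K4me3 interval, H3K27me3 was found for 2 of 63 metformin intervals and none of 84 control intervals from 66 to 67 Mb. From 69 to 70 Mb it was found for none of 47 metformin intervals and none of 59 control intervals. Over the genome these shares were 14.3% of metformin intervals and 10.8% of control intervals.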

How the data were processed

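ChIP-seq peak lists of H3K4me3 and H3K27me3 from metformin-treated and control H1299 cells were analysed, 1 list per library. The submitters' processing notes name Trimmomatic 0.38, Bowtie, MACS2 and hg19. The sources used here give no options or background libraries. The lists give intervals with 1 deposited value each, read as −log10 q because the values start just above 1.30 (q = 0.05) for H3K4me3 and 1.00 (q = 0.1) for H3K27me3, where it is taken as an average over the interval. Depth is unknown.

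Lines sharing an interval were joined at their highest value, and positions are 1-based. Intervals were shared from 1 bp of overlap. Overlap code was tested on simulated data and against bedtools 2.31.1 (Python 3.11.15, pandas 2.3.3, numpy 2.4.6, scipy 1.17.1, matplotlib 3.10.9). The region, the comparisons and the rule for named intervals were chosen with earlier results of these data known. The rule names, per list, the 5 highest values, the 5 highest without partner and the 3 longest. Per mark it names the 5 loci with the largest gain and the 5 with the largest loss, the 3 100 kb bins with the largest loss in each falling bin, and the 3 longest overlaps of the marks per condition. Others were named after their values were seen. A planned gene list was not analysed here, for want of gene positions on hg19.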

Additional observations from a re-analysis of the deposited data

How the results depend on the processing

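With 1 library behind each list, leaving out replicates could not be tried. No paired analysis was possible because the groups hold a single library each. Limits of 2, 10 and 20 (H3K4me3), 1.5 (H3K27me3) and limits on loci were chosen after seeing the data. Over the region the H3K4me3 ratio of covered length, metformin over control (1.01), was 1.03 at values of 5 or more, 1.12 at 10, 1.18 at 20 and 1.02 for intervals of 500 bp or more. It was below 1 with intervals within 1 kb merged (0.979), equal list lengths (0.986) or division by the genome's ratio (0.903). From 66 to 67 Mb (0.842) it was 0.754 after that division, 0.843 at 2, 0.879 at 5, 1.03 at 10, 1.04 at 20, 0.837 merged, 0.816 at equal lengths, 0.864 from 500 bp, and 0.861 or 0.98 with the bin moved down or up by 500 kb. From 69 to 70 Mb (0.844) these were 0.755, 0.85, 0.836, 0.93, 1.01, 0.809, 0.822, 0.843, 0.938 and 0.781. The H3K27me3 ratio (1.15) was 1.06 after division, 1.18 merged, 1.20 from 500 bp and 1.18 at 1.5. None of its intervals reached 5. H3K4me3 sharing (67.04% metformin, 64.7% control) was 56.0% and 54.1% with 50% of an interval overlapped, 80.1% and 81.5% at 5, and 81.9% and 84.8% from 500 bp. H3K27me3 sharing (43.8% and 44.1%) was 23.0% and 26.4% with 50%. H3K4me3 loci at least 1.5 times lower or higher (161 and 148) numbered 43 and 54 at interval values of 5, 31 and 38 among loci reaching 5, 1 and 7 among those reaching 20, 75 and 67 merged, and 38 and 46 from 500 bp, so the order of lower and higher depends on the low and short intervals. Sequence under both marks (4738 and 495 bp) was 3899 and 0 bp from 500 bp. The cause of these shifts was not tested. In 22 cases, the counts of loci at equal list lengths among them, the value stayed within its interval, within 1.5 times for counts, or equal.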
